A study of Homo sapiens with 3 samples.

Results

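Expression of the genes that take up, activate and inactivate decitabine was examined in YB5 colon cancer cells treated with decitabine, carboplatin or both drugs. The group held 8 genes, namely the transporters SLC29A1, SLC29A2 and SLC28A1, the kinase DCK, the deaminases CDA and DCTD, the nucleotidase NT5C2 and the triphosphatase SAMHD1. Members were found by their gene name among the gene probes of the scanner files. This gave 11 probes of 41000, and 8 genes of 18349 that could be named. DCK, DCTD and SLC29A2 had a pair of probes each, and the other 5 genes had 1 probe.

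Decitabine is a deoxycytidine analog that cannot act until it has entered the cell and been phosphorylated. Equilibrative transporters (SLC29 family) and sodium-driven concentrative transporters (SLC28 family) carry nucleosides across the plasma membrane, deoxycytidine kinase adds the first phosphate, and further kinases form the triphosphate that is built into DNA, where it traps DNA methyltransferases. Cytidine deaminase turns the nucleoside into an inactive uridine analog, dCMP deaminase acts on the monophosphate, cytosolic nucleotidases remove the phosphate again, and SAMHD1 splits deoxynucleoside triphosphates.

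YB5 is a single clone of the SW48 colon cancer line with 1 copy of a GFP gene behind a CMV promoter that is silenced by CpG methylation, and the treated and control cells all carried it. The cells received 4 doses on days 1 to 4 of decitabine (25 nM), carboplatin (20 μM in the sample labels, a dose the publication does not give uniformly) or both, and were harvested on day 6, and control cells received DMSO. RNA was hybridized to 3 dual-colour Agilent arrays on 1 slide, 1 array per treatment, with treated RNA in the green channel (Cy3) and control RNA in the red channel (Cy5). The dyes were not exchanged between samples, and dye bias of a probe cannot be told apart from its change. Changes are log2 treated over control after background correction and loess normalization, and a gene was counted as changed at a ratio of at least 1.5, which is 0.58 on the log2 scale. With 1 array per treatment there was no replicate error and no test, and precision is limited by the number of arrays.

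The sample labels give the names used here, decitabine-labelled, carboplatin-labelled and combination array, but gene lists did not follow the labels of the single-drug arrays. Of all genes, 10.6 % rose at least 1.5-fold on the decitabine-labelled array, 2.77 % on the carboplatin-labelled array and 7.48 % with both drugs, and 4.66, 1.49 and 5.92 % fell. Of 16 targets of p53, which DNA damage activates, 15, 10 and 15 rose in that order. Of 14 cancer-testis genes, many of which are silenced by methylation, 0, 2 and 2 rose, namely PRAME on the latter arrays with SSX2 or TKTL1, and 4, 5 and 4 of the 14 had a control signal well above background. The publication lists genes as lowered by carboplatin, which were chosen on these same arrays. Of 53 such genes measured, 41 were down on the decitabine-labelled array, 4 on the carboplatin-labelled array and 38 with both drugs. A difference between the single-drug arrays is therefore given here by label, and which drug it belongs to was not tested. Of 9 epithelial and intestinal markers, 9, 8 and 7 had a control signal well above background on the decitabine-labelled, carboplatin-labelled and combination arrays, with KRT20 and LGALS4 missing on the last. Of 7 markers of other cells, PTPRC, PECAM1, COL1A2 and DES were not well above background in any control channel.

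A strip along the left side of the decitabine-labelled array had a low control signal, and 3 of the 11 probes lay in it. The strip held 4331 of 43376 gene spots (9.98 %). Their median control signal was 171 units, against 355 and 307 for the same spots on the carboplatin-labelled and combination arrays. The treated signal of these spots was not low, with medians of 190, 180 and 181 in that order. The median log2 change in the strip was therefore 0.80 on the decitabine-labelled array and −0.03 and 0.01 on the others. The border was sharp, and of 22429 bright spots 25 lay on the wrong side of it. That count does not test the border, which was fitted to leave the fewest bright spots there. The border ran a little aslant and reached column 11 in the lowest rows. The spots in columns 1 to 9 were therefore not the same set. Outside those columns 91 spots lay in the strip, and 124 spots of those columns lay outside it. The probe of CDA (column 1) and a DCK probe (column 3) were in the strip within columns 1 to 9, and a DCTD probe (column 11) was in the strip beyond them. The control signals of these probes differed from those on the other arrays by −1.20, −1.29 and −1.38 on the log2 scale. For the other 8 probes this difference ranged from −0.25 to 0.28.

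**Figure D1:**
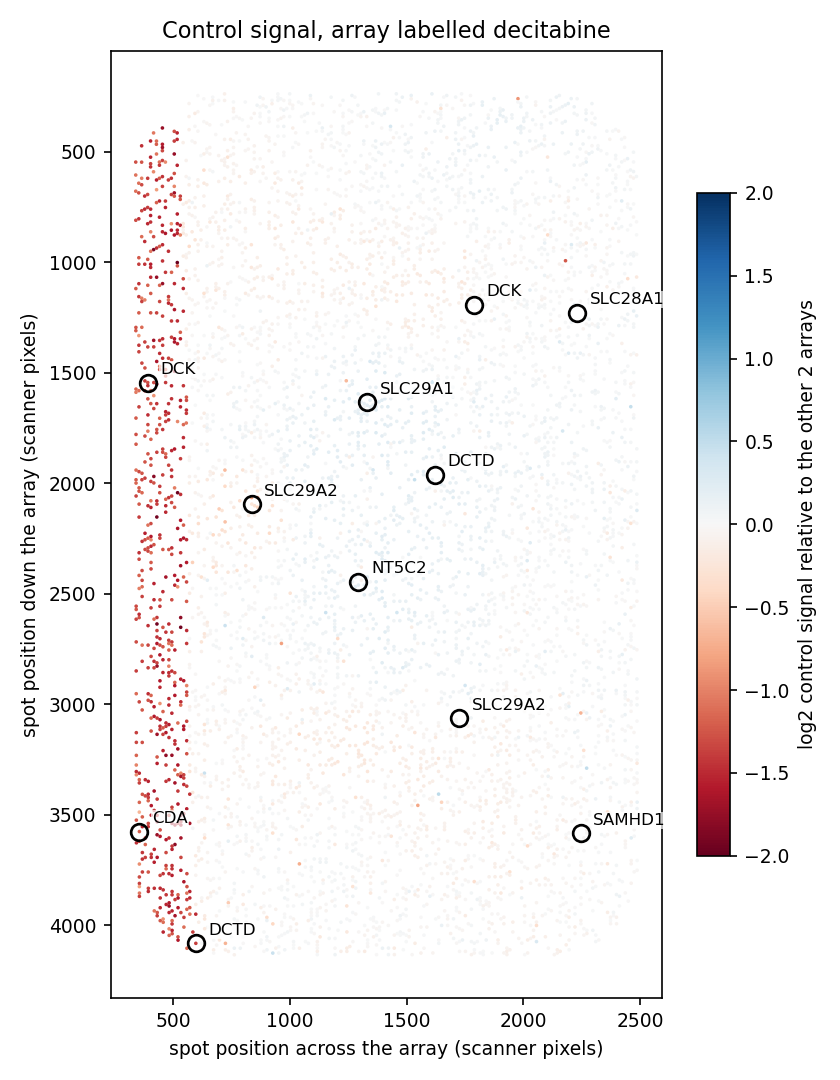
Control signal on the decitabine-labelled array by spot position (scanner pixels across and down the array), for a random subset of bright gene spots. Colour gives the log2 control signal relative to the mean of the other 2 arrays, and circles mark the 11 member probes. A sharp strip at the left has a low control signal and holds CDA, a DCK probe and, at its lower end, a DCTD probe.

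Values for these 3 probes on that array are therefore given in 2 forms. The first is the change as scanned. In the second, called replaced, the control signal of every spot in the strip was taken from the mean log2 control signal of the other 2 arrays, shifted by the median difference of bright spots outside the strip, and the array was normalized again. All control channels held RNA of DMSO-treated cells, but whether this was 1 extract is not stated. The sample titles and the publication call the control cells untreated. The replaced form was chosen after seeing the data.

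The probes behind the results are 60 bases long. Their first 30 bases are shown because the pairs for DCK and DCTD read different stretches of the transcript and are given apart.
CDA, probe A_23_P34597: agaatgcccactgcctgtaacagccacctg
DCK, probe A_23_P259438: tgtttttggtttcttattcaaagatgataa
DCK, probe A_24_P89080: ttaactacttatctctaaaccatctatgtg
DCTD, probe A_24_P345948: tgtttaatatggccggggtgacattccgga
DCTD, probe A_24_P337334: tagtgcccttggaagaaaattaggcctcaa

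All positions of probes are those of the scanner files on GRCh37. The CDA probe lies on the plus strand at chr1:20945069-20945128. The DCK probes lie on the plus strand at chr4:71896167-71896226 (A_23_P259438) and chr4:71895933-71895992 (A_24_P89080). The DCTD probe A_24_P337334 lies on the minus strand at chr4:183812036-183812095, and A_24_P345948 spans 1613 bases at chr4:183812599-183814211, so that it crosses an intron. Whether the other probes fall in coding or untranslated sequence is not given in the files and was not determined.

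CDA, which inactivates decitabine by deamination, was the one member past 1.5-fold with both drugs, and after the strip was replaced also the one past it on the decitabine-labelled array. Its control signal was 376 units on the decitabine-labelled array, 825 on the carboplatin-labelled array and 738 on the combination array. The first of these is the dimmed spot, and the other control signals were close to each other. The treated signal was 177 on the decitabine-labelled array, 393 on the carboplatin-labelled array and 197 with both drugs, over local backgrounds of 63, 54 and 49. The treated signal was thus low on the decitabine-labelled and combination arrays and high on the carboplatin-labelled array, while the median treated signal of all gene spots was 166, 163 and 167. With both drugs CDA fell by 1.02 on the log2 scale, 2.03-fold. On the carboplatin-labelled array its log2 change was 0.04. On the decitabine-labelled array the change was −0.21 as scanned and −1.30 when replaced, a 2.46-fold fall. A loess curve fitted to the strip alone gave −1.32. It takes no control signal from another array, but the strip was set by comparison with the other arrays. This form too was chosen after seeing the data. The software's own log ratio gave −2.18 and the deposited values of the authors −0.83. The sign was negative on this array and with both drugs under each processing that kept the spot, and the range with both drugs was −1.35 to −0.65.

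**Figure D2:**
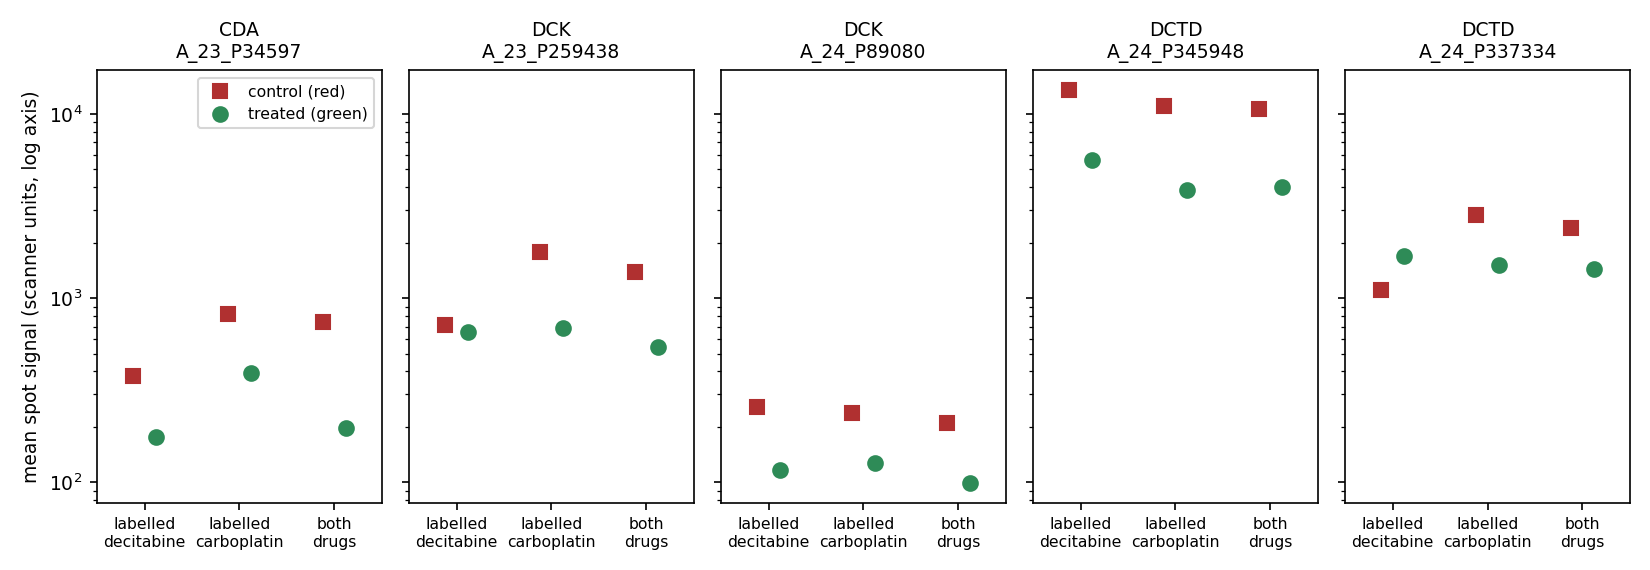
Mean spot signal (scanner units, log axis) in the control channel (squares) and the treated channel (circles) of each array for CDA and for the probe pairs of DCK and DCTD. For CDA, DCK A_23_P259438 and DCTD A_24_P337334 the control signal is lowest on the decitabine-labelled array, and for CDA the treated signal is high on the carboplatin-labelled array alone.

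DCK, the kinase that adds the first phosphate to decitabine, was counted as up on the decitabine-labelled array by its brighter probe, and the other probe gave no such rise. The brighter probe, A_23_P259438, had control signals of 711, 1787 and 1383 units on the decitabine-labelled, carboplatin-labelled and combination arrays. Its treated signals were 653, 685 and 540 in that order. The control signal was the low one, and the treated signal on the decitabine-labelled array lay between those of the other arrays. The log2 change was 0.96 as scanned (1.95-fold) and −0.28 when replaced. On the carboplatin-labelled and combination arrays it was −0.20 and −0.42. The second probe, A_24_P89080, lay outside the strip, with control signals of 255, 239 and 211 and treated signals of 117, 127 and 99. Its log2 changes were −0.27, −0.08 and −0.38. With the control signal replaced the 2 probes were at −0.28 and −0.26 on the decitabine-labelled array. In that form both lay below 0 and within the 1.5-fold limit on each array. In the authors' deposited values A_23_P259438 was at 0.11, 0.26 and −0.12, and A_24_P89080 at −0.19, −0.09 and −0.44. With median centring in place of loess A_23_P259438 was at 0.53 on the decitabine-labelled array. On the carboplatin-labelled array it was then at −0.6, past 1.5-fold.

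DCTD, the dCMP deaminase, gave opposite signs at its 2 probes. The brighter probe, A_24_P345948, had control signals of 13543, 11129 and 10712 on the decitabine-labelled, carboplatin-labelled and combination arrays, and treated signals of 5608, 3851 and 4033. Its log2 changes were −0.07, −0.26 and −0.36. The probe A_24_P337334 had control signals of 1114, 2835 and 2414, of which the first is the dimmed spot, and treated signals of 1687, 1521 and 1444. Its log2 change on the decitabine-labelled array was 1.74 as scanned (3.33-fold) and 0.39 when replaced. The changes on the carboplatin-labelled and combination arrays were 0.33 and 0.27. The treated signals of this probe were similar on the 3 arrays, so the high value as scanned came with a low control signal. Leaving out columns 1 to 9 kept this spot. With the replaced value the probes still had opposite signs on each array, and no probe passed 1.5-fold. In the authors' deposited values A_24_P337334 was at 0.79, 0.75 and 0.66, past 1.5-fold on each array. With median centring in place of loess it was at −0.13 and −0.16 on the carboplatin-labelled and combination arrays, the sign of the brighter probe.

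The equilibrative transporters SLC29A1 and SLC29A2, the usual route of nucleosides into cells, changed by less than 1.5-fold on every array. The probe of SLC29A1 (chr6:44201775-44201834, plus strand) had control signals of 12606, 8916 and 9856 on the decitabine-labelled, carboplatin-labelled and combination arrays, and treated signals of 5463, 3377 and 5507. The carboplatin-labelled array was the lowest in both channels. Its log2 changes were 0.00, −0.13 and 0.22. SLC29A2 was read by the probes A_23_P104705 (chr11:66131724-66131783) and A_23_P98294 (chr11:66135262-66135321), both on the minus strand. The first had control signals of 526, 569 and 566 and treated signals of 244, 314 and 400, so that the treated signal was highest with both drugs. Its log2 changes were −0.07, 0.22 and 0.41. The second had control signals of 376, 355 and 340, treated signals of 216, 181 and 233, and log2 changes of 0.18, 0.03 and 0.28. With both drugs the pair had the same sign, and on the decitabine-labelled array opposite signs.

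SLC28A1, a concentrative transporter known from kidney, liver and small intestine, was at background level. Its probe spans 7986 bases on the plus strand (chr15:85478730-85486715). The control signal was 112 on the decitabine-labelled array, the one channel where the spot was well above background, and 98 and 95 on the carboplatin-labelled and combination arrays. The treated signals of 73, 69 and 70 were not well above background on any array. No fold change is given for this gene, and it is left out of the plot of changes and of the medians and ranges over members.

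NT5C2, a cytosolic nucleotidase, and SAMHD1, which hydrolyses deoxynucleoside triphosphates, stayed within 1.5-fold. NT5C2 (chr10:104848783-104848842, minus strand) had control signals of 2429, 1928 and 1929 on the decitabine-labelled, carboplatin-labelled and combination arrays, and treated signals of 1139, 945 and 901. Both channels were brightest on the decitabine-labelled array, and the log2 changes were 0.06, 0.16 and −0.12. SAMHD1 (chr20:35533804-35533863, minus strand) was dim, with control signals of 184, 172 and 176 and treated signals of 91, 102 and 96, all well above background. Its log2 changes were −0.26, 0.06 and −0.19.

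**Figure D3:**
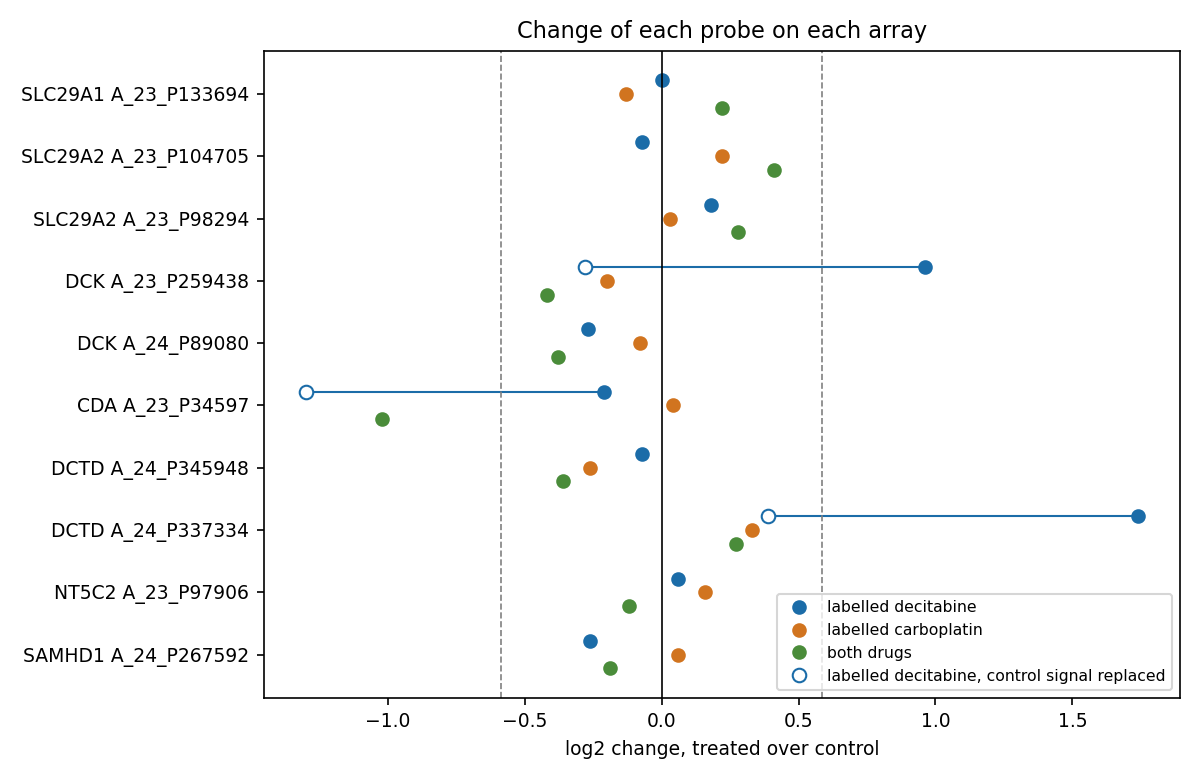
Log2 change of treated over control on each array for the 10 probes well above background in both channels (filled points). Open points give the 3 probes of the dimmed strip of the decitabine-labelled array with the control signal replaced, and dashed lines mark 1.5-fold. As scanned DCK and DCTD probes pass the upper line on that array, whereas with the replaced control signal CDA alone passes a line, at −1.30, beside its value of −1.02 with both drugs.

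By its brightest probe 1 of the 7 genes above background was up on the decitabine-labelled array (DCK), against 10.6 % of all genes, and 0 were down, against 4.66 %. All genes here include those not above background, so the shares beside the members come from an unlike set. With the control signal replaced 0 were up, against 5.1 % of all genes, and 1 was down (CDA), against 5.06 %. On the carboplatin-labelled array 0 were up and 0 down, where 2.77 % of all genes were up and 1.49 % down. With both drugs 0 were up, against 7.48 %, and 1 was down (CDA), against 5.92 %. A single gene among so few cannot be set apart from these background shares. The median log2 change of the 7 genes was −0.07, 0.04 and −0.19 on the decitabine-labelled, carboplatin-labelled and combination arrays, and −0.06 on the first when replaced. Over all genes the medians were 0.01, −0.01 and 0.00. Among their 7 probes outside the strip the changes ranged from −0.27 to 0.18 on the decitabine-labelled array, from −0.26 to 0.22 on the carboplatin-labelled array and from −0.38 to 0.41 with both drugs.

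Technical error within an array was taken from 264 probes spotted 10 times each. The pooled SD of their log2 changes was 0.23, 0.0751 and 0.0769 on the decitabine-labelled, carboplatin-labelled and combination arrays, and 0.0723 on the first outside the strip. Each member probe has 1 spot per array, and this SD leaves out the spread between cultures and between extracts. Another measure is the spread of the control channels after scaling between arrays. If these channels held 1 extract, which is not stated, it too leaves out the spread between cultures and between extracts. The control levels of the carboplatin-labelled and combination arrays differed by 0.05 on the log2 scale for CDA, against a difference of 1.01 between their treated levels. For SLC29A1 these figures were 0.30 and 0.65, and for SLC29A2 (A_23_P104705) 0.14 and 0.32. For the DCK probes the control levels differed by 0.18 (A_23_P259438) and 0.05 (A_24_P89080), and the treated levels by 0.40 and 0.35. For NT5C2, SAMHD1 and DCTD A_24_P345948 the control levels differed more, by 0.20, 0.13 and 0.10. Their treated levels with both drugs less those on the carboplatin-labelled array were −0.08, −0.11 and 0.00. For SLC29A2 A_23_P98294 and DCTD A_24_P337334 the treated levels differed more than the control levels. Once replaced, the values of CDA, DCK A_23_P259438 and DCTD A_24_P337334 on the decitabine-labelled array share control signals with the other arrays.

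With both drugs the change can be set beside those of the single-drug arrays. For CDA the change with both drugs lay 1.06 below that on the carboplatin-labelled array (−1.06) and, with the replaced value, 0.28 above that on the decitabine-labelled array. For SLC29A2 (A_23_P104705) it lay 0.18 above the carboplatin-labelled array and 0.48 above the decitabine-labelled array. For SLC29A1 these differences were 0.35 and 0.22. The DCK probe outside the strip lay 0.30 below the carboplatin-labelled array and 0.11 below the decitabine-labelled array (−0.30 and −0.11). After the strip was replaced, CDA alone among the 10 probes above background differed by 1.5-fold or more between the combination and a single-drug array.

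The promoters of CDA and DCK are shown because CpG, the letters CG, is where the methylation lies that decitabine removes, and because the genes differ in it. Sequences are from RefSeq on GRCh38.p14, 250 bases before the start site, with each CG in capitals. Of the 8 genes, 7 were matched by symbol. Promoter methylation was not analysed here.
CDA, chr1:20588847-20589096, plus strand: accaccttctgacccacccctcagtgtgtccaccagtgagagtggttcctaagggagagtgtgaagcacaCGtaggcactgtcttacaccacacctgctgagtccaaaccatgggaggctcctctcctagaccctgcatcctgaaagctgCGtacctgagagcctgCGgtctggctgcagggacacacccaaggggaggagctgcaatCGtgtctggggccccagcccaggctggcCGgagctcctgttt
DCK, chr4:70993399-70993648, plus strand: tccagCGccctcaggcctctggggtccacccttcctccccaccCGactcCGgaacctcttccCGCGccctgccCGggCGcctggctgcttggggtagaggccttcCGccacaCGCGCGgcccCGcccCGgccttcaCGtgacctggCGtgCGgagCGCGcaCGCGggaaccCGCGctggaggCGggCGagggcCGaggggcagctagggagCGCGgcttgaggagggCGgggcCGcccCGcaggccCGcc

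The stretch before CDA holds 5 CG and that before DCK holds 31. CG reads the same on both strands. In the full window of 300 bases CDA has 8, and 41.6 % of 35116 promoters have as many or fewer. DCK has 37, with 90.1 % of promoters at or below that. SLC28A1 has 4 and SAMHD1 22. DCTD has 30 and 47 at its listed starts, SLC29A1 27 and 34, and NT5C2 has 0, 3 and 41. SLC29A2 was not matched.

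The other genes of nucleoside transport and metabolism were taken from a list of 44 measured genes with further transporters, kinases, nucleotidases, enzymes of deoxynucleotide supply, efflux pumps and the DNA methyltransferases. Of these, 37 were well above background in a channel of each array. On the decitabine-labelled array 6 were up (13.6 %, against 10.6 % of all genes) and 3 down (6.82 %, against 4.66 %). On the carboplatin-labelled array 1 was up (2.27 %, against 2.77 %) and 0 down, against 1.49 %. With both drugs 7 were up (15.9 %, against 7.48 %) and 2 down (4.55 %, against 5.92 %). The median of the list was 0.03, 0.10 and −0.05 on the log2 scale on the 3 arrays. In the dimmed strip lay the brightest probes of 8 of the 44 genes, and with the control signal replaced 2 were up (4.55 %, against 5.1 %) and 3 down (6.82 %, against 5.06 %) on the decitabine-labelled array.

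Of the genes that build or clear deoxynucleotides, RRM2B, a p53-induced subunit of ribonucleotide reductase, changed most among those outside the strip. Its control signals were 364, 338 and 352 on the decitabine-labelled, carboplatin-labelled and combination arrays, and its treated signals 599, 240 and 732. The log2 change was 1.76, 0.50 and 1.94. It rose on the decitabine-labelled and combination arrays, outside the strip. The subunits RRM1 (−0.39, −0.04 and −0.30) and RRM2 (−0.22, 0.18 and −0.09) stayed within 1.5-fold. TK1, the S-phase thymidine kinase, changed by −0.73, 0.40 and −0.45. DUT, which degrades dUTP, changed by −0.64, 0.31 and −0.50 at one probe and by −0.62, 0.32 and −0.48 at the other. DTYMK, which makes dTDP, changed by −0.65, 0.11 and −0.64, and by −0.16, 0.40 and −0.24 at its second probe. TK1, DUT and DTYMK thus fell at least 1.5-fold on the decitabine-labelled array, and of these DTYMK alone also with both drugs. TYMS, the thymidylate synthase, changed by 1.25 as scanned in the strip and by −0.26 when replaced, with −0.42 and −0.49 on the other arrays.

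Among further kinases of nucleosides and nucleotides, CMPK1 changed by 0.39, −0.05 and 0.18 on the decitabine-labelled, carboplatin-labelled and combination arrays. NME1, a nucleoside diphosphate kinase, rose by 0.64 on the decitabine-labelled and combination arrays, and its change on the carboplatin-labelled array was 0.09. NME3 rose with both drugs (0.78), with 0.35 on each of the other arrays, and NME7 fell with both drugs (−0.72). UCK1, a uridine-cytidine kinase, changed by 0.53, 0.68 and 0.72, which passed 1.5-fold on the carboplatin-labelled and combination arrays. DGUOK, the mitochondrial deoxyguanosine kinase, changed by 1.43 as scanned in the strip and by −0.34 when replaced.

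SLC29A3, an equilibrative transporter of lysosomes and mitochondria, rose with both drugs (0.60) by its brightest probe. Its other probes gave 0.86 and 0.08 there. SLC29A4 changed by 0.32, 0.39 and 0.21, while SLC28A2 and SLC28A3 were not well above background on any array. Of the efflux pumps, ABCC10 rose with both drugs (0.63), ABCG2 changed by −0.25, −0.20 and −0.37, and ABCB1 was not well above background. ABCC5 changed by 1.65 as scanned and by 0.11 when replaced, and its probe outside the strip gave 0.38 on the decitabine-labelled array. TYMP, thymidine phosphorylase, changed by 2.01 as scanned and 0.37 when replaced, and rose with both drugs (0.85), where its second probe gave 0.18. The targets of the drug stayed within 1.5-fold. DNMT1 changed by −0.28, 0.33 and −0.15, DNMT3A by −0.10, 0.00 and −0.05, and DNMT3B by −0.18, 0.44 and 0.38.

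**Figure D4:**
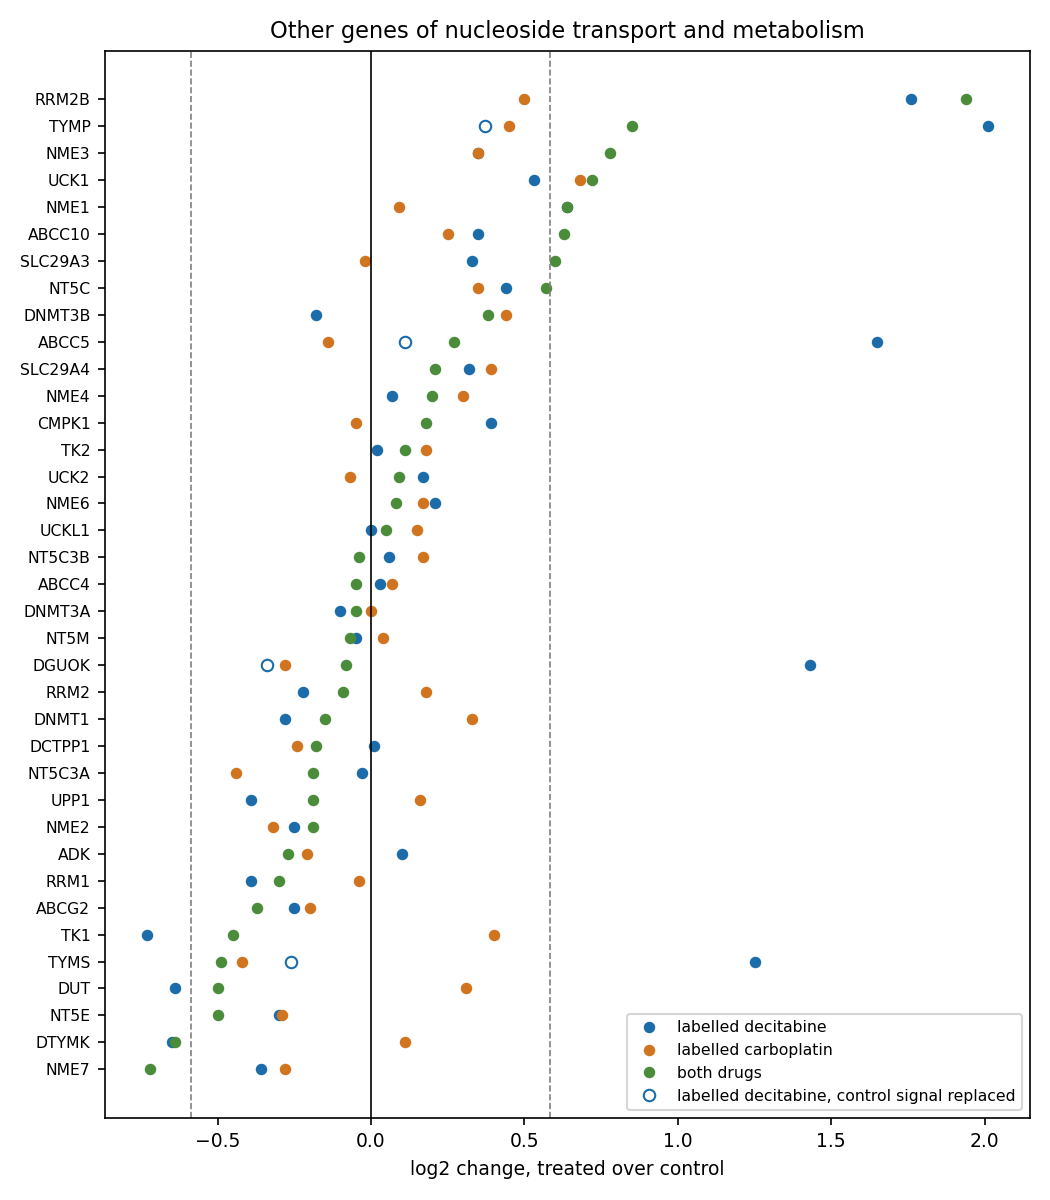
Log2 change of treated over control by the brightest probe for the 37 other genes of nucleoside transport and metabolism that were above background, ordered by the value with both drugs. Open points give genes of the dimmed strip with the control signal replaced, and dashed lines mark 1.5-fold. RRM2B is high on the decitabine-labelled and combination arrays, and ABCC5, DGUOK, TYMP and TYMS move below the upper line on the decitabine-labelled array when replaced.

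Genes most like CDA were sought by the Euclidean distance over the 3 log2 changes, among 12807 genes well above background in both channels of all arrays. With the control signal replaced, the nearest were NCAPG (distance 0.154), H2AZ2 (0.162) and BIRC5 (0.178). NCAPG changed by −1.15, 0.03 and −0.98 on the decitabine-labelled, carboplatin-labelled and combination arrays. As scanned, the nearest to CDA were FOXP1, ZNF670 and MLLT3, at distances of 0.302 to 0.364. For SLC29A2 the nearest were UBE2Q1, HGS and IL17RE in both forms. DCK was nearest to ZDHHC14, AKTIP and CDK5RAP2 as scanned, and to HINT1, EYA3 and CDC42SE2 when replaced, so that no gene was shared between its lists. As scanned, DCTD was nearest to PEX13, TNFRSF11A and ARMC1, SLC29A1 to CHD1L, CYP4F30P and SLC39A13, NT5C2 to NKX2-8, GPR62 and HADHB, and SAMHD1 to MDH1B, CEP78 and PTPN18. As scanned, the 3 nearest genes of the members other than CDA lay at distances of 0.014 to 0.069.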

How the data were processed

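RNA of YB5 cells was measured on 3 dual-colour Agilent arrays, 1 for each treatment. The deposited scanner files give spot intensity as read by Agilent Feature Extraction, version 9.5.3.1 per the file headers and 8.5.1.1 in the submitters' processing notes. Mean, median and local background intensities are unsubtracted, and the processed signals were background subtracted, detrended and dye normalized by that software. The deposited log10 ratio is red over green. The authors' table gives log2 ratios after loess with limma and agilp in R 3.0.2, per the labels and the paper's methods, and its background step and direction are not stated. It correlated with the changes computed here (Pearson's r over probes of 0.867, 0.838 and 0.936 for the decitabine-labelled, carboplatin-labelled and combination arrays), which set its direction as treated over control.

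Mean signals were corrected by normexp (offset 50) against the median local background and normalized by loess within each array with limma 3.58.1 (R 4.3.3). Control spots and 276, 111 and 89 outlier spots were left out, none of them a member. Signals in the text are raw means, and levels after scaling between arrays came from Aquantile. A gene was named through its accession or symbol in RefSeq (28785 probes) and represented by its brightest probe. Of all gene spots, 69.0, 70.3 and 68.2 % of control signals and 65.8, 68.4 and 68.5 % of treated signals were well above background. The dimmed strip was set from bright spots (log2 control signal above 8) that are no member, in bands of 16 rows, at a log2 control difference from the other arrays under −0.7 after centring. The loess and the replacement of the strip were run on simulated arrays with known changes. Background correction and the removal of outlier spots were not part of that run. The simulated control signals were built from those of the carboplatin-labelled and combination arrays, and the strip was dimmed by a constant factor. The replacement assumes the same, so its recovery there does not show how well it holds on the real strip.

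All members with all probes are named, and of the pathway list the genes past 1.5-fold and some others for comparison, chosen after their values were seen. The members and lists were chosen with earlier results of these data known. Alternatives were 11 listed ones and 3 chosen after seeing the data.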

Additional observations from a re-analysis of the deposited data

How the results depend on the processing

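With 8 genes and 1 array per treatment, the counts rest on 1 gene, and for CDA on 1 spot per array. On the decitabine-labelled array the count of members up, 1 (DCK), became 0 with the processed signals, the software's log ratio, the authors' deposited values, median centring in place of loess, a ratio of 2, without columns 1 to 9, and under the 3 alternatives for the dimmed strip. With the mean over all probes of a gene the count was also 1, and that gene was DCTD. The count of members down there, 0, became 1 with the processed signals, the log ratio, the authors' values, the replaced control signal and a loess fitted apart in the strip (CDA), and 1 with median centring (DCTD). The brighter DCK probe turned from 0.96 to −0.52 with the processed signals, −0.41 with the log ratio, −0.28 with the replaced control signal and −0.39 with the loess fitted apart. Under median centring the median of all genes was −0.14, −0.16 and −0.11 on the decitabine-labelled, carboplatin-labelled and combination arrays. It gave 3 members down (DCK, DCTD, SLC29A1) and 1 up on the carboplatin-labelled array in place of 0 and 0, and 3 down (DCK, CDA, DCTD) with both drugs in place of 1. The one up is SLC28A1, which is not well above background in either channel there, so that this is a ratio of background signals. Leaving out columns 1 to 9 or the strip removes CDA, and then 0 members were down with both drugs.

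For the pathway list, the 6 genes up on the decitabine-labelled array became 2 with the authors' values, without columns 1 to 9, without the strip or with the replaced control signal, and 3 with the loess fitted apart. The 3 genes down there became 5 with the processed signals, 14 with median centring and 0 at a ratio of 2. On the carboplatin-labelled array the 1 gene up became 3 with the log ratio or median centring and 0 at a ratio of 2, and the 0 down became 9 with median centring. With both drugs the 7 up became 1 with median centring or at a ratio of 2, and the 2 down became 4 with the processed signals or the log ratio, 13 with median centring, 1 with the mean over probes and 0 at a ratio of 2.

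Among the 10 probes above background, 157 of the values under listed alternatives and 75 under the added ones differed from the reported value by less than the SD of repeated spots outside the strip on that array, and 75 and 4 differed by more with no change of sign in a called value. Of 315 values in all, 19 had the other sign. These are the 4 of DCK above and 15 of changes under 1.5-fold, of which 9 came with median centring, 4 with the authors' values and 2 with the processed signals. The cause of these shifts was not tested. No paired analysis was possible because each treatment has 1 array.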
